A study of Mus musculus with 2 samples.

Results

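The 10 genes described here are the major histocompatibility complex (MHC) class II genes that Cd74 leads: Cd74, H2-Aa, H2-Ab1, H2-Eb1, H2-DMa, H2-DMb1, H2-DMb2, H2-Oa, H2-Ob and Ciita. They were found by name among the 32285 genes of the deposited tables. The genes were chosen on measured values of these libraries, namely their levels and their ratio between the ENZ and control libraries, so those values are a description and carry no test. Droplet-based scRNA-seq counted unique molecular identifiers (UMIs, tags that mark single RNA molecules) in RM-1 tumors, grown from a prostate cancer line of the mouse and labelled wild type. By the study's methods the RM-1 cells were placed in the prostate of C57BL/6 mice, and immune cells were enriched with an isolation kit and then stained for CD45 before sequencing. The labels call the cells prostate cancer cells, although the markers of many immune classes were present. The control tumor received vehicle and the ENZ tumor received enzalutamide (ENZ), an androgen receptor inhibitor. Each condition had 1 library, so a difference between them cannot be told apart from a difference between animals, preparations or sorts. The RM-1 tumors are 1 cell line, and the ages of the animals were not given in the sources used here.

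MHC class II molecules are pairs of an alpha and a beta chain that hold peptides at the surface of antigen-presenting cells for CD4+ T cells. Cd74 is the invariant chain, which fills the groove of a new pair and guides it to endosomes. There proteases cut Cd74 down, H2-DM takes out its last piece so that a peptide can enter, and H2-O holds H2-DM back. Ciita is the coactivator that switches the promoters of these genes on. Dendritic cells, B cells and macrophages are known for them, and many epithelial tumor cells carry little or none unless interferon gamma acts on them.

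The control library held 170830346 UMIs and the ENZ library 162030149. Cells were sorted into classes by markers outside the 10 genes, which is called gating, and a class name below stands for its gate. Cancer cells were barcodes of at least 8000 UMIs with at least 5 UMIs summed over Cacna2d1, Rbfox2, Kif21a and Rhox5. They held at most 1 UMI of Ptprc, the gene of CD45. They numbered 3807 with vehicle and 4290 with ENZ, with a median of 21957 and 22693.5 UMIs. The immune gates held 183 and 102 dendritic cells, 724 and 311 macrophages, 530 and 865 monocytes and only 28 and 13 B cells. Markers that were not used for gating were above 2 times the median of the other classes in both libraries for 7 of 7 dendritic, 6 of 6 macrophage, 5 of 5 monocyte, 5 of 5 B cell and 5 of 6 cancer cell markers. The exception was Epcam in cancer cells, at 3.09 and 2.90 CPM, the UMIs of a gene scaled to 1000000 UMIs of its class and library. Fewer were highest of the classes compared in both libraries. These were 6 of 7 dendritic, 5 of 6 macrophage, 2 of 5 monocyte, 5 of 5 B cell and 5 of 6 cancer cell markers. Of the monocyte markers, F13a1 was at 182 and 298 CPM in monocytes and reached 561 CPM in another class. The libraries shared 16 gated barcodes. Barcodes of at most 100 UMIs, taken as free RNA, held 3830802 and 3626176 UMIs. The gates held 41.2% of all class II UMIs of the control library and 45.8% of those of the ENZ library. Immune barcodes that entered no gate held 26.0% and 22.8%, and barcodes under 1000 UMIs 11.4% and 14.1%.

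Except for Cd74 and Ciita, the genes lie together. On GRCm38 in GENCODE M21, 8 of the 10 lie on chromosome 17 between 34092340 and 34316674, a span of 224 kb. From the left these are H2-Oa, H2-DMa, H2-DMb2, H2-DMb1, H2-Ob, H2-Ab1, H2-Aa and H2-Eb1, with H2-Aa alone on the minus strand. Ciita lies on chromosome 16 from 10480059 to 10528418. All are protein coding. The annotation places 4 other genes over H2-DMa, of which Brd2, CR974462.4 and Gm20493 are on the opposite strand and CR974462.3 on the same strand. It also places BC051537 over H2-Oa, Gm20513 over H2-Eb1 and Dexi over Ciita on the opposite strand, and Mir5107 over Cd74 on the same strand. The strand setting of the counting was not given in the sources used here.

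The promoters of several members share short motifs, shown here because these promoters are where Ciita acts. RefSeq promoters on GRCm38.p6, running from 250 bases before a start to 50 after it, were at hand for 7 of the 10 members. The motif TGATTGG, which contains CCAAT on its other strand and is the Y box of class II promoters, was in the promoters of 6 of these 7 members and in 7.82% of all 32851 promoters on either strand. The motif GNAACNNAT, taken as X-like, was in 4 of the 7 and in 7.92% of all promoters. Both motifs were chosen after the promoters were seen. The following 60 bases are written 5′ to 3′ on the gene's strand, with TGATTGG and an X-like motif at most 40 bases before it in capitals.
H2-Eb1, chr17:34305761-34305820, plus strand: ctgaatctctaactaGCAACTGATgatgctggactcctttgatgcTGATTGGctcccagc
H2-Ob, chr17:34238801-34238860, plus strand: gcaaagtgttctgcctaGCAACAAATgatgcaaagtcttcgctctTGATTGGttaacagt
H2-DMb1, chr17:34153083-34153142, plus strand: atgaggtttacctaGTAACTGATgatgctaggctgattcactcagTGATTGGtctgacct
H2-DMb2, chr17:34145112-34145171, plus strand: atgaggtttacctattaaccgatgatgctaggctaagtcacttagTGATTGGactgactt
H2-Aa, chr17:34287859-34287918, minus strand: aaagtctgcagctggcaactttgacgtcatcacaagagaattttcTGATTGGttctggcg
H2-Oa, chr17:34092289-34092348, plus strand: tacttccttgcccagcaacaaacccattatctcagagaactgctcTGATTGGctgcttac
In H2-Eb1, H2-Ob and H2-DMb1 the X-like motif ended 21, 19 and 22 bases before TGATTGG. That order, with a gap of at most 40 bases on the same strand, was found in 15 of the 32851 promoters (0.0457%), among them those of H2-Eb1, H2-Ob, H2-DMb1 and H2-Eb2, a further class II beta chain gene. The promoters of H2-DMb1 and H2-DMb2 read nearly alike, and that of H2-DMb2 lacked the X-like letters. Of the promoters listed for H2-DMa, 1 held the X-like motif and none held TGATTGG. A match is a run of letters and not a measured binding site.

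Cd74 was the most abundant of the 10 genes in dendritic cells, macrophages, monocytes and B cells. In the control library its level ran from 14197 CPM in type 2 dendritic cells (marked by Cd209a) and 11905 CPM in type 1 dendritic cells (Clec9a and Xcr1) to 8401 CPM in macrophages, 6466 CPM in cells with both monocyte and macrophage markers, and 6152 CPM in B cells. Mature dendritic cells, marked by Ccr7 and Fscn1, held 5586 CPM and monocytes 2783 CPM. Neutrophils, T cells and NK cells held 531, 500 and 313 CPM, and cancer cells 91.8 CPM. In that order only the pairs of monocyte-macrophage and B cells, B cells and mature dendritic cells, and neutrophils and T cells had overlapping counting intervals. The ENZ library kept type 2 dendritic cells first at 12077 CPM and cancer cells last at 31.9 CPM. B cells at 4892 CPM and macrophages at 4827 CPM could not be separated there.

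**Figure D1:**
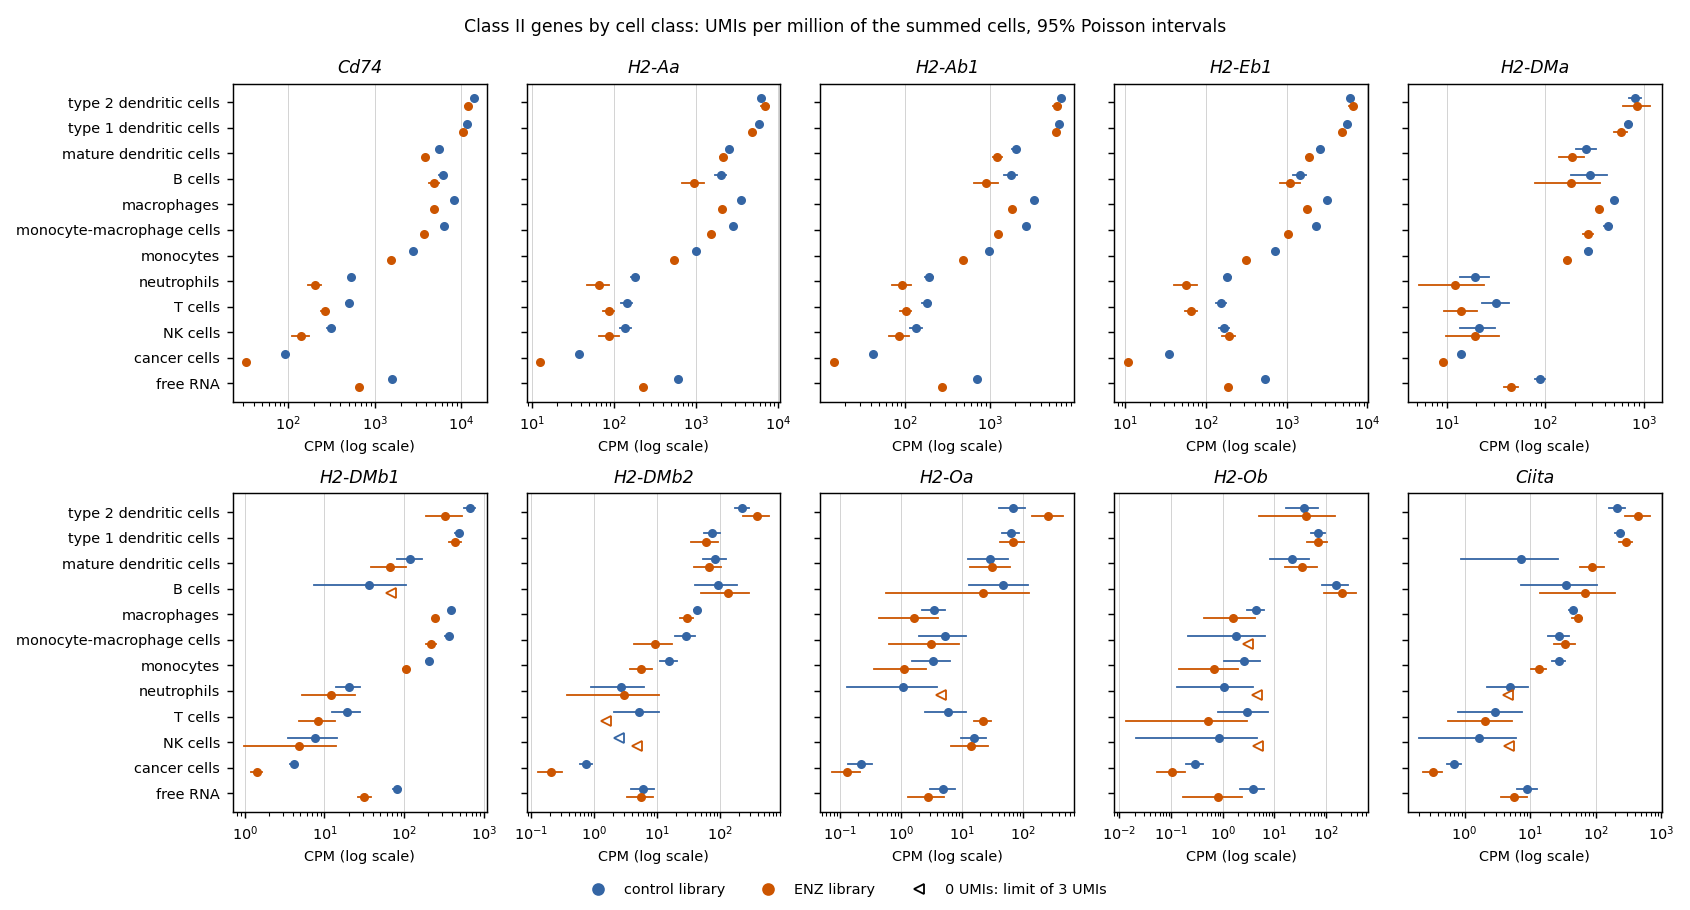
Level of each of the 10 genes in CPM (log axis) by cell class and in free RNA, with 1 point for each library and 95% Poisson intervals. Triangles mark the level of 3 UMIs where none was counted. Dendritic cells of types 1 and 2 sit at the right for Cd74 and the peptide-binding chains, at 11905 and 14197 CPM of Cd74 in the control library, and cancer cells at the left.

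The chains of the peptide-binding molecules followed Cd74. H2-Aa (the I-A alpha chain), H2-Ab1 (its beta chain) and H2-Eb1 (the I-E beta chain) stood at 5919, 6551 and 5631 CPM in type 1 dendritic cells of the control library and at 3556, 3299 and 3187 CPM in macrophages. For every 100 Cd74 UMIs, macrophages held 42.3 H2-Aa UMIs with vehicle and 43.2 with ENZ. The figure was 49.7 and 46.5 in type 1 dendritic cells, 36.1 and 34.0 in monocytes and 32.7 and 19.1 in B cells. H2-Eb1 stood at 47.3 UMIs per 100 Cd74 UMIs in type 1 dendritic cells, 37.9 in macrophages, 25.8 in monocytes and 23.8 in B cells of the control library. H2-Ea, the partner of H2-Eb1, is not functional in C57BL/6 mice and was not analysed here.

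Within a class, single cells differed widely. With each cell thinned to 1000 UMIs, the median cell held 34 class II UMIs in type 2 and 33 in type 1 dendritic cells of the control library, against 19 in macrophages, 14 in B cells, 7 in mature dendritic cells and 1 in monocytes. Monocytes ranged from 34.0% of cells with no class II UMI to a cell with 52 of its 1000 UMIs. Mature dendritic cells had an upper quartile of 18.5, above the median of B cells, although 11.4% of them had no class II UMI. No cell was left out by the thinning. A Cd74 UMI was found after thinning in 92.7% of control macrophages and 50.4% of control monocytes, or 97.5% and 76.2% without thinning. T cells, which should carry little Cd74, had one in 21.2% of cells after thinning and 60.6% without, at a median of 4167 UMIs.

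**Figure D2:**
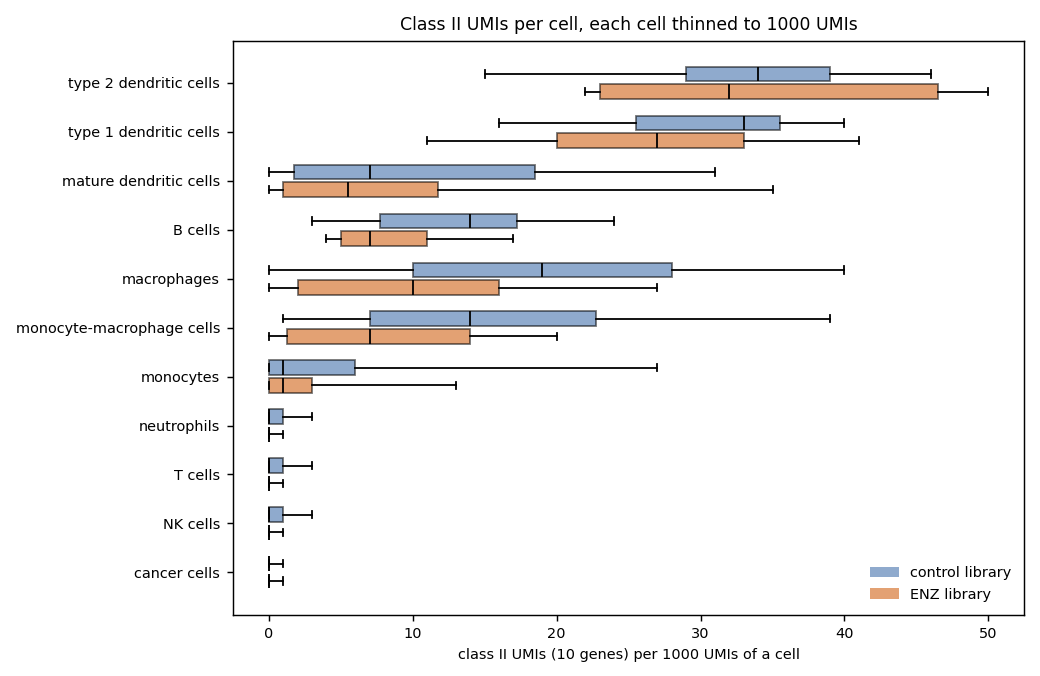
Class II UMIs of the 10 genes per 1000 UMIs of a cell, by class and library, after thinning every cell to 1000 UMIs. Boxes span the quartiles with the median as a line and whiskers reach the 5th and 95th percentiles. The median control macrophage held 19 and the median ENZ macrophage 10, and the medians of neutrophils, T cells, NK cells and cancer cells were 0.

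Macrophages of the ENZ library held less class II RNA than those of the control library. Cd74 went from 8401 CPM (95% Poisson interval 8329.6 to 8473) to 4827 CPM (4741 to 4915), a ratio of ENZ to control of 0.575 (exact interval 0.563 to 0.586). H2-Aa went from 3556 to 2086 CPM, H2-Ab1 from 3299 to 1821 CPM and H2-Eb1 from 3187 to 1811 CPM. These intervals cover counting error only and not the spread between animals, which 1 library per condition cannot show. Of the 8 members with at least 100 UMIs over both libraries, 5 were at least 1.5-fold lower and none was 1.5-fold higher, while 5.42% of 7430 genes were lower and 14.1% higher by that much. The median gene of macrophages stood at a log2 ratio of 0.16, against -0.80 for Cd74, which lay at the 2.65th percentile from the lowest. Thinned to 1000 UMIs, the median macrophage went from 19 to 10 class II UMIs, and cells with none went from 5.66% to 14.8%.

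Other genes of the macrophage gate moved with this. Mrc1, the mannose receptor, was at 593 and 1296 CPM, Mmp12, a macrophage elastase, at 531 and 396 CPM, and Lyz2, lysozyme, at 5560 and 3584 CPM. The 9 macrophage markers summed to 14642 CPM with vehicle and 12808 CPM with ENZ, with Apoe the most abundant at 7415 and 5126 CPM. The 8 monocyte markers summed to 1199.8 and 1834 CPM. Gm42418, which overlaps ribosomal RNA, was at 26647 and 83412 CPM. It was higher with ENZ in the other classes and in free RNA too. Monocytes stood at 32372 and 83340 CPM, dendritic cells at 24035 and 59915 CPM and cancer cells at 10781 and 29200 CPM. With mitochondrial, ribosomal protein and rRNA-like genes left out of the total, the log2 ratio of Cd74 was -0.78, and in macrophages with no Mmp12 UMI it was -0.93. The part of the other shifts in the class II difference was not tested.

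Monocytes showed the same direction at lower levels. Cd74 went from 2783 CPM (2720.0 to 2846) to 1565 CPM (1529 to 1603), a ratio of 0.563 (0.544 to 0.581). H2-Eb1 went from 718 to 313 CPM, a ratio of 0.436 (0.407 to 0.468), and H2-Aa from 1006 to 532 CPM. All 7 members with at least 100 UMIs were at least 1.5-fold lower, beside 5.54% of 6359 genes that were lower and 8.74% that were higher. The genes of the gate itself moved in both directions, with Chil3, a secreted protein of inflammatory monocytes, at 1119 and 2989 CPM, Plac8 at 3824 and 2529 CPM and Ly6c2, a surface protein of these cells, at 719 and 553 CPM. Their part in the class II difference was not tested. Cells with both monocyte and macrophage markers, 102 in each library, lay between the classes in level, at 6466 and 3731 CPM of Cd74.

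Over the whole gate, Cd74 of dendritic cells differed less between the libraries than that of macrophages, an order that stricter gates turned, with log2 ratios of -0.69 in dendritic cells and -0.60 in macrophages. It went from 10155 to 7929.5 CPM, a ratio of 0.781 (0.758 to 0.805), and none of the 10 members passed 1.5-fold in either direction, beside 5.07% of 3331 genes that were lower and 8.8% that were higher. The gate itself changed in makeup. It held 63 type 1, 29 type 2 and 44 mature cells with vehicle and 29, 7 and 38 with ENZ, beside 47 and 28 cells of no kind, so that mature cells, which carried less class II RNA, took a larger part. Within type 1 cells Cd74 was at 11905 and 10478 CPM, a ratio of 0.880 (0.844 to 0.917). In type 2 cells it was at 14197 and 12077 CPM, where the ENZ value rests on 7 cells. Mature cells went from 5586 to 3893 CPM, a ratio of 0.697 (0.643 to 0.755). The cells of no kind went the other way, from 6889 to 8297 CPM, a ratio of 1.204 (1.12 to 1.29). Single members stood farther from 1 within a kind and in both directions, with H2-DMb1 at a ratio of 0.494 (0.276 to 0.826) and H2-Oa at 3.82 (1.71 to 8.35, on 17 and 13 UMIs) in type 2 cells and H2-Ab1 at 0.613 (0.532 to 0.705) in mature cells. Ccl22, a chemokine of mature dendritic cells, was at 293 and 961 CPM over the gate.

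The B cells were few and give wide intervals. Cd74 was at 6152 CPM (5633 to 6706) in 28 control cells and 4892 CPM (4259.6 to 5591) in 13 ENZ cells. H2-Aa was at 2011 and 933 CPM and H2-Ab1 at 1761 and 910.1 CPM, so that 2 of 4 members with enough UMIs were 1.5-fold lower. With only 152 genes that could be compared, 17.1% were lower and 3.95% higher by that much, and the median gene stood at a log2 ratio of -0.29, close to the -0.33 of Cd74. A stricter gate, which left 2 and 3 cells, reversed the log2 ratio of Cd74 to 1.07. The 9 macrophage markers summed to 643 and 182 CPM in the B cell gate. Their part in the class II difference was not tested.

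**Figure D3:**
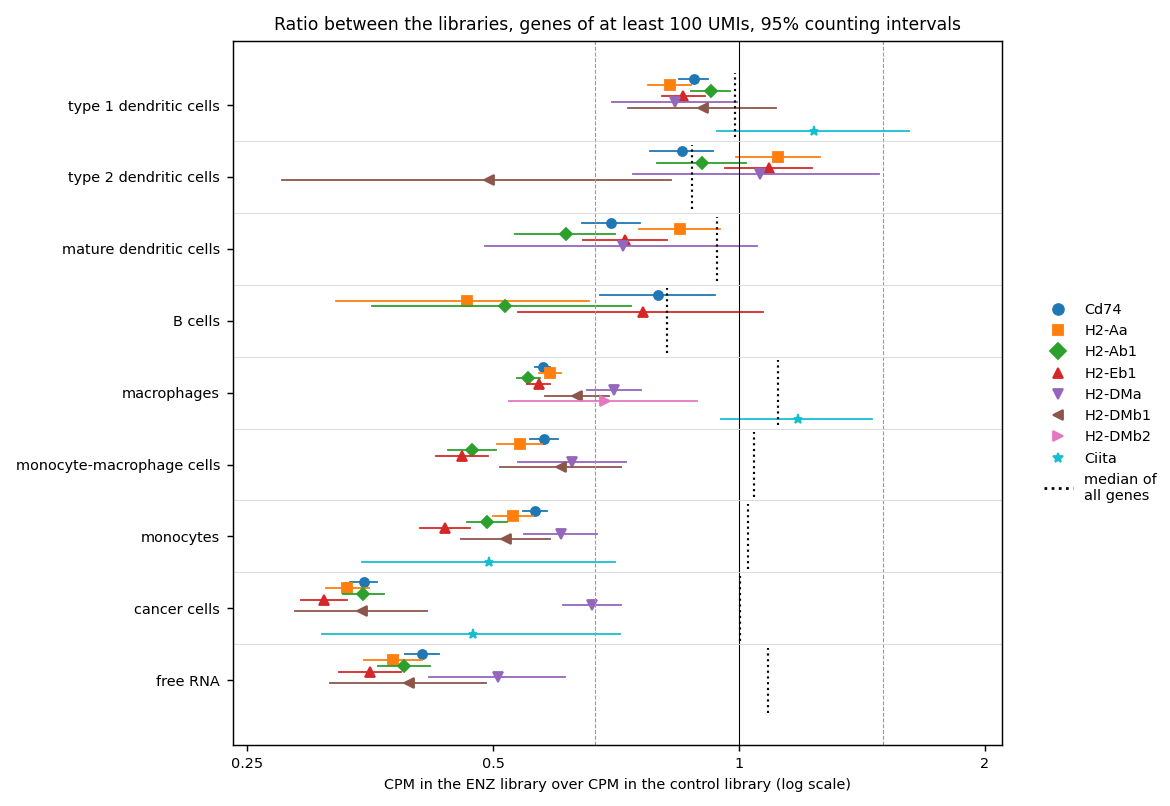
Ratio of CPM in the ENZ library to CPM in the control library (log axis) for each class II gene with at least 100 UMIs over both libraries, by class, with 95% counting intervals. Dotted lines give the median of all genes of that class and dashed lines 1.5-fold. Cd74 lies at 0.575 in macrophages and 0.563 in monocytes, farther from the dotted line than in type 1 dendritic cells at 0.880. Ciita lies apart at 1.18 in macrophages.

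Ciita did not follow its target genes in macrophages. It was at 45.1 CPM (39.96 to 50.6) with vehicle and 53.1 CPM (44.4 to 63.0) with ENZ, a ratio of 1.18 (0.951 to 1.46), whose interval holds no ratio as low as that of Cd74. In the dendritic gate it was at 166 and 192 CPM, a ratio of 1.16 (0.937 to 1.43). In monocytes it went from 27.5 to 13.6 CPM, a ratio of 0.494 (0.346 to 0.704), together with the other members. Mature dendritic cells had 2 Ciita UMIs in 44 control cells and 23 in 38 ENZ cells, or 7.34 and 89.9 CPM, a ratio of 12.2 (3.03 to 107). Few cells carried these UMIs, 4.55% of the control and 18.4% of the ENZ mature cells. Control mature dendritic cells thus held 5586 CPM of Cd74 beside almost no Ciita, where control type 1 cells held 11905 CPM of Cd74 beside 233 CPM of Ciita. By order of level, Ciita was highest in dendritic cells of types 1 and 2, at 233 and 213 CPM with vehicle and 287 and 450.3 CPM with ENZ, and lay in neutrophils, T cells, NK cells and cancer cells at or below 4.87 CPM.

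H2-DM and H2-O were ordered differently over the cell classes. H2-DMa, the alpha chain of H2-DM, was at 700.4 CPM in type 1 dendritic cells, 501 CPM in macrophages and 286 CPM in B cells of the control library. H2-Ob, the beta chain of H2-O, was at 155 CPM in B cells and 71.2 CPM in type 1 dendritic cells, with overlapping intervals. It was at 4.46 CPM in macrophages and 2.60 CPM in monocytes. H2-Oa, the alpha chain, was instead highest in type 2 dendritic cells, at 69.6 CPM with vehicle and 266 CPM with ENZ. B cells held 47.6 and 22.8 CPM of H2-Oa, on 4 and 1 UMIs. H2-O chains made up 32.7% (Clopper-Pearson interval 20.3 to 47.1%) of H2-O and H2-DM UMIs in control B cells, 9.71% (7.89 to 11.8%) in type 1 dendritic cells and 0.846% (0.628 to 1.11%) in macrophages. The ENZ values were 41.7% (22.1 to 63.4%), 11.4% (8.35 to 15.1%) and 0.513% (0.222 to 1.01%), in the same order with no overlap between these classes. NK cells, at 37.0% and 37.5%, and ENZ T cells, at 50.6% (39.6 to 61.5%), had shares as high as those of B cells, from 20, 9 and 44 H2-O UMIs. In macrophages H2-DMa went from 501 to 352 CPM and H2-DMb1 from 388 to 246 CPM, ratios of 0.703 (0.652 to 0.759) and 0.634 (0.579 to 0.693).

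The genes for the beta chain of H2-DM were used in different proportions. H2-DMb2 gave 72.7% (39.0 to 94.0%) of the 11 UMIs of both genes in control B cells and all 6 in ENZ B cells. It gave 41.8% (28.7 to 55.9%) in control mature dendritic cells, 25.7% (20.03 to 32.0%) in type 2 and 13.6% (10.3 to 17.5%) in type 1 cells, and 10.1% (9.02 to 11.3%) in control macrophages. Type 2 dendritic cells of the ENZ library, at 54.3% (36.6 to 71.2%) of 35 UMIs, did not overlap with those of the control, although only 7 cells gave them. The split between these genes is uncertain, because their longest coding transcripts align over 848 bases with 95.4% identity. The alignment ends 177 bases before the end of H2-DMb1 and 339 bases before that of H2-DMb2. The last 300 bases, where reads of a 3′ library fall, shared no run of 50 bases. Those of H2-DMb2 lie outside the alignment, so this comparison could not have found it. Over their whole length the transcripts shared 361 such runs, and reads there could match both genes.

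**Figure D4:**
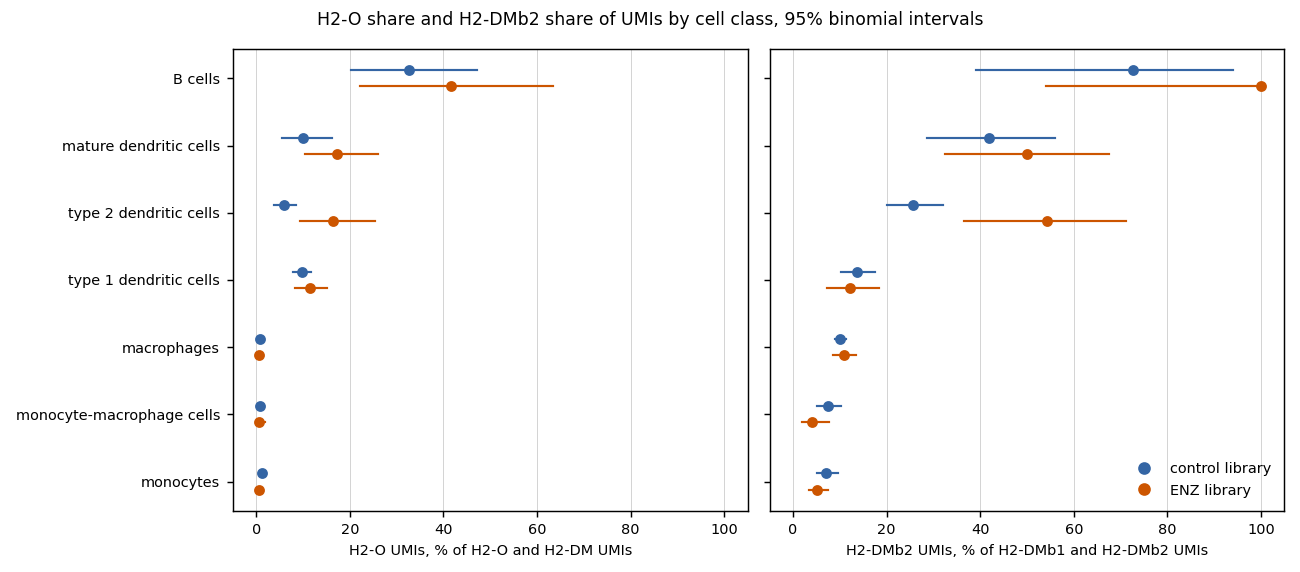
Left, UMIs of H2-Oa and H2-Ob as a percentage of those and of H2-DMa, H2-DMb1 and H2-DMb2, and right, UMIs of H2-DMb2 as a percentage of H2-DMb1 and H2-DMb2, by class and library with 95% Clopper-Pearson intervals. T and NK cells are not shown, and of the classes shown B cells lie highest in both, at 32.7% and 72.7% in the control library, and macrophages and monocytes near the lower end.

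The rest of the pathway was followed in 33 genes, of which 32 were in the tables. In macrophages 1 of 26 with enough UMIs was 1.5-fold lower (Cd40, a costimulatory receptor) and 4 were higher, while 5 of 8 members were lower and none higher, as given above. Ctss, a protease of the late cuts in Cd74, was at 1602 and 1564 CPM in macrophages, a ratio of 0.976 (0.941 to 1.01). Ifi30, which reduces disulfides of antigens, was at 841 and 761 CPM. Of the interferon gamma pathway, which induces Ciita, Ifngr1 was at 100.3 and 166 CPM and Irf1 at 56.0 and 75.8 CPM. The other higher genes were Ctsd at 362 and 584 CPM, March1, a ligase that removes class II from the surface, at 73.9 and 127 CPM, and Nfyc, a subunit of a CCAAT-binding factor, at 24.7 and 38.5 CPM. The 4 of 26 stand beside the 14.1% of all macrophage genes that were higher, and the 1 of 26 beside the 5.42% lower.

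In dendritic cells 1 of 21 pathway genes was lower, Ctsd at 53.0 and 30.0 CPM, and 4 were higher. Of all 3331 genes of that gate 5.07% were lower and 8.8% higher. The 4 included Jak2, a kinase of the interferon gamma receptor, at 547 and 883 CPM. They also included the costimulatory genes Cd80 at 189 and 296 CPM and Cd40 at 61.1 and 116 CPM. In monocytes none of 26 passed 1.5-fold in either direction, beside 5.54% of all monocyte genes that were lower and 8.74% that were higher. Cd83, which holds class II at the surface, was at 165 and 112 CPM there and Ctss at 1544 and 1579 CPM. No pathway gene had enough UMIs in B cells. In cancer cells 5 of 30 were lower (Ctsh, Cd80, Cd86, Cxcr4 and Cxcr2, the highest of them at 8.36 CPM) and none was higher, beside 4.08% of all genes of cancer cells that were lower and 1.43% that were higher. Mif, a cytokine that binds Cd74, stood there at 903 and 907 CPM.

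Cancer cells carried class II RNA at a small part of the level in free RNA. Cd74 was at 91.8 CPM (90.0 to 93.7) with vehicle and 31.9 CPM (30.8 to 32.9) with ENZ, and the ratio was 0.347 (0.334 to 0.361). In free RNA it was at 1612 and 659 CPM, a ratio of 0.409 (0.390 to 0.429). All 7 members with at least 100 UMIs were at least 1.5-fold lower in ENZ cancer cells, beside 4.08% of 15221 genes that were lower and 1.43% that were higher. That count depended on few cells and on values near the limit. H2-DMa passed with an interval of 0.609 to 0.716, and in the cancer cells without Ptprc and with few myeloid UMIs described below it was at 12.2 and 8.99 CPM, less than 1.5-fold apart. Ciita was at 0.385 and 0.275 CPM, also less than 1.5-fold apart, without the cells of 10 or more Cd74 UMIs described below. In free RNA all 6 such members were lower too, beside 2.92% of 7899 genes that were lower and 4.77% that were higher. Cancer cells held 5.70% (5.52 to 5.88%) of the free RNA level of Cd74 with vehicle and 4.84% (4.59 to 5.09%) with ENZ. Cancer cells with no Ptprc UMI and at most 1 UMI of Lyz2 and C1q held 2.85% and 3.62%, which turns the order of the libraries. Beside these stood 8 other genes of immune cells with at least 100 CPM in free RNA. They were at 3.35 to 8.08% with vehicle and 3.10 to 7.10% with ENZ, with Tyrobp lowest and Srgn highest. Among the 8 were C1qa and C1qb of the macrophage gate and Lyz2, which macrophages also carried. Cd74, H2-Aa, H2-Ab1 and H2-Eb1 stood at 5.70 to 6.41% and 4.84 to 5.63%, below Srgn and above the other 7 of these genes in both libraries, of which Fcer1g was the highest at 4.93% and 4.24%. That order depended on the barcodes taken as free RNA. With those of 20 to 300 UMIs, S100a8 at 6.26% and S100a9 at 6.52% stood above the 4 members at 5.35 to 5.92% in the control library. Cd79a, a B cell gene with 2 and 5 UMIs in free RNA, stood at 187% and 64.4%.

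As a share of the free RNA level, H2-DMa in cancer cells stood above Cd74, the peptide-binding chains and its partner H2-DMb1. It was at 13.9 and 9.17 CPM, which is 15.7% (13.9 to 17.7%) and 20.4% (17.3 to 24.2%) of its free RNA level, above all 8 of those genes in both libraries. For every 100 Cd74 UMIs cancer cells held 15.1 and 28.8 H2-DMa UMIs, where free RNA held 5.51 and 6.82 and macrophages 5.96 and 7.30. Among the 2265 control and 3160 ENZ cancer cells with no Ptprc UMI and at most 1 UMI of Lyz2 and C1q, H2-DMa was at 12.2 and 8.99 CPM, while Cd74 was at 45.9 and 23.9 CPM. H2-DMb1, its partner chain, was at 4.13 and 1.42 CPM in all cancer cells, 5.14% and 4.49% of free RNA. The annotation places 4 other genes over H2-DMa, more than over any other member, with CR974462.3 on the same strand. The part of these genes in the UMIs of H2-DMa was not tested. The intervals of some sparse members overlapped with that of H2-DMa, such as H2-DMb2 at 12.5% (7.72 to 20.8%) in the control and H2-Ob at 12.8% (3.44 to 70.4%) in the ENZ library.

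**Figure D5:**
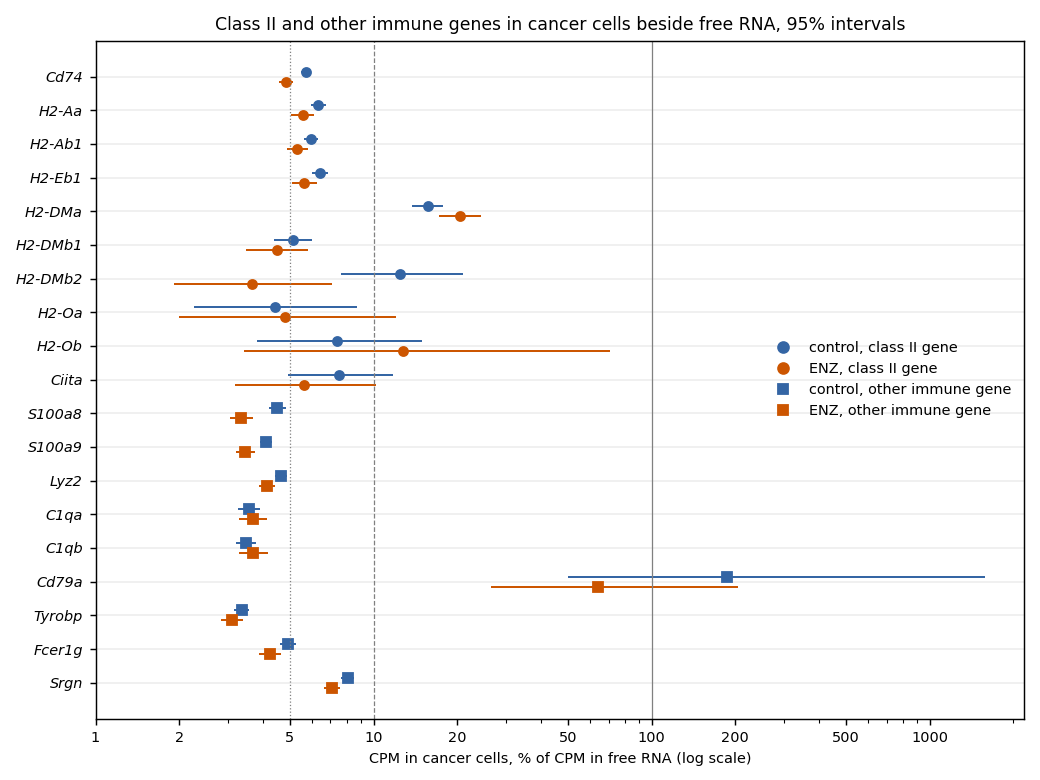
Level in cancer cells as a percentage of the level in free RNA (log axis), by library with 95% counting intervals. Circles are the 10 class II genes and squares 9 other genes of immune cells, macrophages included. Vertical lines mark 5, 10 and 100%. H2-DMa lies at 15.7% and 20.4%, and Cd74 and the peptide-binding chains lie between 4.84% and 6.41%, below Srgn at 8.08% and 7.10%. Cd79a rests on 2 and 5 UMIs in free RNA.

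A few cancer cells held much of the Cd74. Cells with at least 10 Cd74 UMIs were 110 of 3807 (2.89%, interval 2.38 to 3.47%) with vehicle and 35 of 4290 (0.816%, 0.569 to 1.13%) with ENZ, and they gave 54.9% and 29.1% of the Cd74 UMIs. They also held Lyz2 at 558 and 266 CPM, against 32.5 and 19.3 CPM in the other cancer cells, and Tyrobp at 174 and 148 CPM against 15.8 and 8.44 CPM. At least 3 UMIs of Lyz2 and C1q were in 81 of the 110 and 22 of the 35. The other 29 and 13 held Ccr7 at 21.2 and 23.1 CPM, Wdfy4 at 22.2 and 20.2 CPM and Ciita at 13.8 and 8.65 CPM. In the 81 and 22 cells Ccr7 was at 9.39 and 3.08 CPM and Wdfy4 at 13.6 and 7.70 CPM. Flt3, also of the dendritic gate, was at 6.35 and 2.88 CPM in the 29 and 13, against 5.18 and 3.08 CPM. Tyrobp was at 132 and 98.1 CPM in the 29 and 13. At least 2 UMIs of the dendritic gate genes were in 13 of the 29 and 4 of the 13, and in 24 of the 81 and 5 of the 22. Krt8, a keratin of the cancer cells, was at 533 and 463 CPM in the cells high in Cd74. The part of droplets with more than 1 cell in this was not tested. Without those cells Cd74 was at 43.1 and 22.8 CPM.

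The level also moved with the limits of the cancer cell gate. Cells with Ptprc at 1 held 230.3 CPM of Cd74 with vehicle and 76.5 CPM with ENZ, those with Ptprc at 0 held 62.5 and 24.7 CPM, and cells just outside the gate with 2 or 3 Ptprc UMIs held 725 and 270.1 CPM. Cells of 8000 to under 10000 UMIs held 109 and 49.95 CPM, and those of 6000 to under 8000 UMIs, just outside, 133 and 47.5 CPM. At 5 or 6 UMIs of the cancer markers Cd74 was at 806 and 137 CPM in 24 cells each, and at 3 or 4 UMIs, outside the gate, at 55.8 and 44.7 CPM in 18 and 7 cells.

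Neutrophils, T cells and NK cells held class II RNA at levels below that of free RNA. Cd74 went from 531 to 201 CPM in neutrophils, 500 to 264 CPM in T cells and 313 to 139 CPM in NK cells, and all 3 pairs of intervals lay apart. The 9 macrophage markers summed to 245 and 110.5 CPM in T cells, with Apoe the most abundant at 108 and 50.02 CPM, and to 2488 and 1353 CPM in free RNA. Their part in the Cd74 of these cells was not tested. H2-Eb1 in ENZ NK cells gave 137 UMIs per 100 Cd74 UMIs, but 1 cell held 50 of its 119 UMIs.

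H2-Oa, the alpha chain of H2-O, differed from the other members in its ratio between the libraries in T cells. In T cells it was counted 8 times in 269 control cells and 43 times in 379 ENZ cells, or 5.90 and 22.4 CPM, a ratio of 3.80 (1.76 to 9.35) that was the highest of the 10 genes in T cells. The UMIs were spread over 7 and 38 cells, with at most 3 in a cell. NK cells held 19 H2-Oa UMIs in 211 cells and 9 in 104, a ratio of CPM of 0.900 (0.359 to 2.09). Free RNA held 4.96 (2.99 to 7.75) and 2.76 CPM (1.32 to 5.07) of H2-Oa, which overlapped with T cells at 5.90 CPM (2.55 to 11.6) in the control library and lay below those at 22.4 CPM (16.2 to 30.2) in the ENZ library. NK cells lay above free RNA in both libraries, with intervals of 9.63 to 24.98 and 6.58 to 27.3 CPM. The Cd74 level of free RNA was above that of T cells and NK cells in both. H2-Ob, the partner chain, was at 2.95 and 0.521 CPM in T cells, and no T or NK cell had a UMI of both.

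The likeness of other genes to Cd74 was ranked across the classes. Over 18 points (9 classes in 2 libraries, which share libraries and depth) and 6534 genes, Pearson's r of log2(CPM + 1) with Cd74 was 0.99 for H2-Aa and H2-Ab1, 0.97 for H2-Eb1, 0.96 for H2-DMa, 0.95 for Ciita, 0.91 for H2-DMb2, 0.73 for H2-DMb1, 0.64 for H2-Ob and 0.49 for H2-Oa. H2-DMb1, H2-Ob and H2-Oa thus ranked 118, 250 and 636. The 8 highest values outside the 10 genes were those of Cd86 (0.96), Cd83 (0.94), Fgd2 (0.94), Unc93b1 (0.92), Zdhhc14 (0.92), Ly86 (0.92), Rasgef1b (0.92) and Pld4 (0.91). In macrophages these 8 had ratios of ENZ to control from 1.06 to 1.76, where Cd74 stood at 0.575, whereas in cancer cells all 8 were below 1, from 0.598 to 0.989. Cd86, the costimulatory ligand that ranked first, was at 474 and 637 CPM in macrophages, a ratio of 1.34 (1.26 to 1.43), and at 359 and 327 CPM in monocytes, a ratio of 0.910 (0.838 to 0.988).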

How the data were processed

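The deposited values were UMI counts of each gene in every barcode, as the authors' pipeline wrote them, with no cells called. The matrix headers name Cell Ranger 7.2.0, whereas the submitters' processing notes name Cell Ranger 2.1.1 and mm10, and the annotation and the use of intronic reads were not given in the sources used here. Both could change the counts of single genes. Tumors of 1 control and 1 ENZ library were compared.

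From these counts, cells were gated on markers (at least 1000 UMIs, at most 20% mitochondrial UMIs). Immune gates asked for at least 1 Ptprc UMI and at most 1 UMI of the cancer markers. In place of a doublet caller, immune barcodes with markers of a further immune class were left out, except for the monocyte-macrophage class. The limit for a further class was in part lower than its gate, such as 5 against 10 C1q UMIs for macrophages. The cancer cell gate left out no barcode for immune markers other than Ptprc. The members, gene lists and gate limits were chosen with earlier results of these data known, and Fscn1 was taken out of the dendritic gate because cancer cells carried it. For each class and library the UMIs were added up and scaled to CPM. Intervals of 95% were exact Poisson for a level, conditional binomial for a ratio and Clopper-Pearson for a share, and cover counting error only. No test between conditions was made, since cells are not replicates. Genes were counted as higher or lower past 1.5-fold with at least 100 UMIs over both libraries.

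Genes named were the 10 members, pathway genes of at least 50 CPM in a gate that moved or were described by role, and the 8 genes most like Cd74. Other genes, among them Nfyc, the pathway genes of cancer cells, Mrc1, Mmp12, Lyz2, Gm42418 and the H2-Oa and H2-Eb1 details of lymphoid cells, were chosen after their values were seen. Some results of the pathway list are not reported here. Promoters were RefSeq's, and the intervals were tested on simulated data. Alternatives covered gate limits, denominators, scaling, subtraction of free RNA and the mean of each cell's CPM. Python 3.11.15, SciPy 1.17.1 and blastn 2.17.0 were used.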

Additional observations from a re-analysis of the deposited data

Results flagged for a closer look

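Ciita moved in opposite directions between cell classes, and the difference between the classes was not tested. Its ratio of ENZ to control was 2.11 (1.22 to 3.54) in type 2 dendritic cells, on 52 and 22 UMIs from 29 and 7 cells, and 12.2 (3.03 to 107) in mature dendritic cells, on 2 and 23 UMIs. It was 0.494 (0.346 to 0.704) in monocytes and 0.473 (0.308 to 0.715) in cancer cells, on 69 and 37 UMIs. In cancer cells Ciita was at 7.53% and 5.62% of its free RNA level, and 32 of the 69 control UMIs and 6 of the 37 ENZ UMIs lay in the 110 and 35 cells with at least 10 Cd74 UMIs. Without those cells it was at 0.385 and 0.275 CPM, on 37 and 31 UMIs.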

How the results depend on the processing

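No paired analysis was possible because vehicle and ENZ were 1 library each, and no replicate could be left out. The log2 ratio of Cd74 stayed below 0 in cancer cells, dendritic cells, macrophages and monocytes under every alternative run. With stricter gates it was -0.99 in cancer cells, -0.69 in dendritic cells, -0.60 in macrophages and -0.75 in monocytes, and it reversed to 1.07 in B cells, where 2 and 3 cells were left. Averaged over the CPM of single cells it was -1.46 in cancer cells, -0.47 in dendritic cells and -0.85 in macrophages, and 1 dendritic cell member then passed 1.5-fold. Subtracting free RNA gave -1.72 in cancer cells. Median-of-ratios scaling gave -0.039 in B cells and -0.96 in macrophages. Among alternatives chosen after seeing the data, the mean over the 3 kinds of dendritic cells gave -0.31, macrophages without a Mmp12 UMI -0.93 and monocytes without a C1q UMI -0.77. At a limit of 2-fold the members past it were 6 in cancer cells, 0 in dendritic cells, 1 in B cells, 0 in macrophages and 3 in monocytes. The share of all genes past 2-fold is not given here. Cd74 in control cancer cells was 5.91% of free RNA with barcodes of 20 to 300 UMIs as free RNA. In cancer cells without Ptprc and with at most 1 UMI of C1q and Lyz2 it was 2.85% with vehicle and 3.62% with ENZ. Depth limits H2-Oa and H2-Ob outside dendritic cells, H2-DMb2 outside dendritic cells and macrophages, and all members but Cd74, H2-Aa, H2-Ab1 and H2-Eb1 in B cells. The cause of these changes was not tested.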
